A study of Mus musculus with 4 samples.

Results

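Periostin (Postn) and collagen triple helix repeat containing 1 (Cthrc1) are secreted matrix proteins that lung fibroblasts express when they remodel tissue, and cells with both mRNAs are known from fibrotic lung. The cells described here were 193 of the 28153 lung cells that passed the quality limits. They were chosen by measured values: at least 1 UMI, that is 1 counted mRNA molecule, of 4 or more of the fibroblast genes Dcn, Pdgfra, Col1a1, Col1a2, Col3a1, Gsn, Mgp and Serping1, at least 1 UMI of Postn or Cthrc1, and 0 UMIs of Ptprc, Epcam and Pecam1, the genes of immune, epithelial and endothelial cells. The same limits without the Postn or Cthrc1 requirement were met by 890 cells, and the 697 of them with neither mRNA were the cells compared.

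The study asked how lung fibroblasts differ across the life of the mouse. Whole lungs of wild type C57BL/6 mice labelled male were dissociated with collagenase D and DNase1, dead cells were removed, and 1 droplet 3′ single-cell library was made per age, at 10 days (NB), 2 months (2 M), 10 months (10 M) and 18 months (18 M). No agent was given and no allele was altered in any group. The sources used here do not say how many animals went into a library, and with 1 library per age neither a test between ages nor a test between cells of a library was made, so the intervals given below are 95% intervals that cover counting error only.

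Fibroblasts build and renew the collagens, elastic fibres and proteoglycans of the lung. Alveolar fibroblasts lie in the gas exchange walls, adventitial fibroblasts in the cuffs around vessels and airways, and smooth muscle cells and pericytes, together called mural cells, wrap airways and vessels and use actin and myosin to contract. Postn binds integrins and collagen and is also expressed by cells of the contractile kind, so that its mRNA alone does not tell these cells apart.

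Postn lies on chr3:54361109-54391037 of the plus strand, Cthrc1 on chr15:39076932-39087121 of the plus strand, and Acta2, which encodes smooth muscle actin, on chr19:34241090-34255590 of the minus strand (GRCm38). Because cells with Postn were found both with and without Acta2, the 250 bases before a RefSeq start of each of these genes are shown side by side (GRCm38.p6, 5′ to 3′ on the strand of the gene). For Postn RefSeq also has a start further upstream, with the window chr3:54359017-54359266, and the window shown is the one next to the start of the gene given above. For Acta2 the RefSeq start lies inside the gene span given above, so most of its window overlaps that span. Capitals mark a TATA element (TATATAA) in Postn, at positions -28 to -22 from the start. In Acta2 they mark GGAATG, the element that TEAD factors bind, at -146 to -141, and CArG-like elements, the kind of sequence that serum response factor binds, at -84 to -75 and -34 to -25.
Postn, chr3:54360857-54361106: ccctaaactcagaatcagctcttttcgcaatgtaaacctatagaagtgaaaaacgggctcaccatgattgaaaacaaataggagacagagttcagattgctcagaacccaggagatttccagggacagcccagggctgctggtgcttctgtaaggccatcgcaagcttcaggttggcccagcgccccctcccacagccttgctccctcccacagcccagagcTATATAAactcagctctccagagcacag
Acta2, chr19:34255374-34255623: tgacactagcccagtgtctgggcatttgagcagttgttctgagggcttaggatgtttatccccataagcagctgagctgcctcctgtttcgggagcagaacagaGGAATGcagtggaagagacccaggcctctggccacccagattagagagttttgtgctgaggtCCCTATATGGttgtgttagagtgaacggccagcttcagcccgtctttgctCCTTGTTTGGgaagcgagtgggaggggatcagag
On either strand, the TATA element was found in 3.04% of the 32851 RefSeq promoter windows, GGAATG in 12.6% and the CArG-like element in 8.59%. No GGAATG or CArG-like match was found in either Postn window, and the upstream one had no TATA match. A match describes letters only.

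The label of fibroblasts was checked first against these genes. Of the 193 cells with Postn or Cthrc1, 121 carried at least 2 of the 7 mural genes Rgs5, Cspg4, Notch3, Kcnj8, Myh11, Cnn1 and Des. Among these 121 cells, Dcn, a proteoglycan of fibroblasts, was detected in 17 and Pdgfra, the growth factor receptor of fibroblasts, in 13. Acta2, which neither the selection nor the mural genes include, was detected in 110 of them. Myh11, the smooth muscle myosin, was detected in 108, a count that the split itself sets because Myh11 is 1 of the 7 genes. They entered the selection through genes that mural cells share with fibroblasts, since 115 had Col1a1, 119 Col1a2, 115 Col3a1, 119 Gsn and 112 Mgp. Serping1 was detected in 67 of them. Whether they include the myofibroblast-like cells with Acta2 that the study reports was not tested. Since most of them carried Acta2 and few had Dcn or Pdgfra, which are genes of the selection, they are not called fibroblasts but cells with mural genes here. In the other 72 cells, with 0 or 1 of the 7 genes, Dcn was detected in 65, Pdgfra in 51, Acta2 in 13 and Myh11 in 5.

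The 2 marker genes of the selection were detected in different numbers of cells with and without mural genes. Postn was detected in 120 of the 121 cells with mural genes and Cthrc1 in 7. In the 72 cells without mural genes, Postn was detected in 51 and Cthrc1 in 43. Both mRNAs were present in 28 of the 50 cells with Cthrc1, and all 28 came from the 18 M library. Cthrc1 was found in 0 of 22 cells with mural genes in NB, 0 of 5 in 2 M, 0 of 23 in 10 M and 7 of 71 in 18 M (9.86%, interval 4.06% to 19.3%). Outside these cells it was found in 1 of 2, 1 of 1, 6 of 10 and 35 of 59 cells in the same order, which in 18 M was 59.3% (45.7% to 71.9%). These counts describe the selection, in which Cthrc1 was 1 of the 2 ways to enter.

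**Figure D1:**
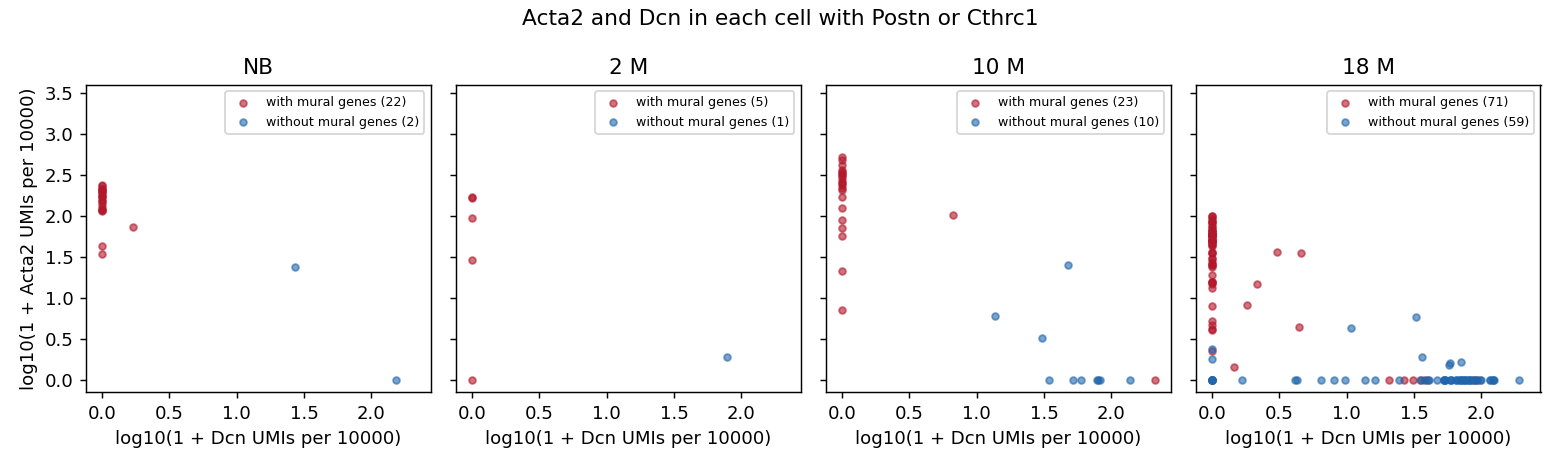
Each point is 1 of the selected cells with Postn or Cthrc1, placed by its UMIs of Acta2 and of Dcn per 10000 UMIs on axes of log10(1 + value), in a panel for each library and coloured by whether the cell has 2 or more of the 7 mural genes. The cells with mural genes lie high on Acta2 and mostly at 0 for Dcn, and the 59 cells without mural genes of 18 M lie high on Dcn and mostly at 0 for Acta2.

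The selected cells made up the largest share of the fibroblast gate in the 18 M library. They were 24 of 166 cells in NB (14.5%, 9.49% to 20.7%), 6 of 106 in 2 M (5.66%, 2.11% to 11.9%), 33 of 389 in 10 M (8.48%, 5.91% to 11.7%) and 130 of 229 in 18 M (56.8%, 50.1% to 63.3%). The interval of 18 M did not overlap those of the other libraries, and the intervals of NB, 2 M and 10 M overlapped each other. As shares of all cells kept, the same cells were 0.376%, 0.108%, 0.420% and 1.55%.

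The share was also taken apart by mural genes. Among cells without them it was 2 of 123 cells in NB (1.63%), 1 of 86 in 2 M (1.16%), 10 of 341 in 10 M (2.93%, 1.42% to 5.33%) and 59 of 145 in 18 M (40.7%, 32.6% to 49.2%). Among cells with mural genes the share was 22 of 43 in NB (51.2%, 35.5% to 66.7%), 5 of 20 in 2 M (25.0%, 8.66% to 49.1%), 23 of 48 in 10 M (47.9%, 33.3% to 62.8%) and 71 of 84 in 18 M (84.5%, 75.0% to 91.5%). Mural genes were carried by 22 of the 24 selected cells in NB, 5 of 6 in 2 M, 23 of 33 in 10 M and 71 of 130 in 18 M.

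**Figure D2:**
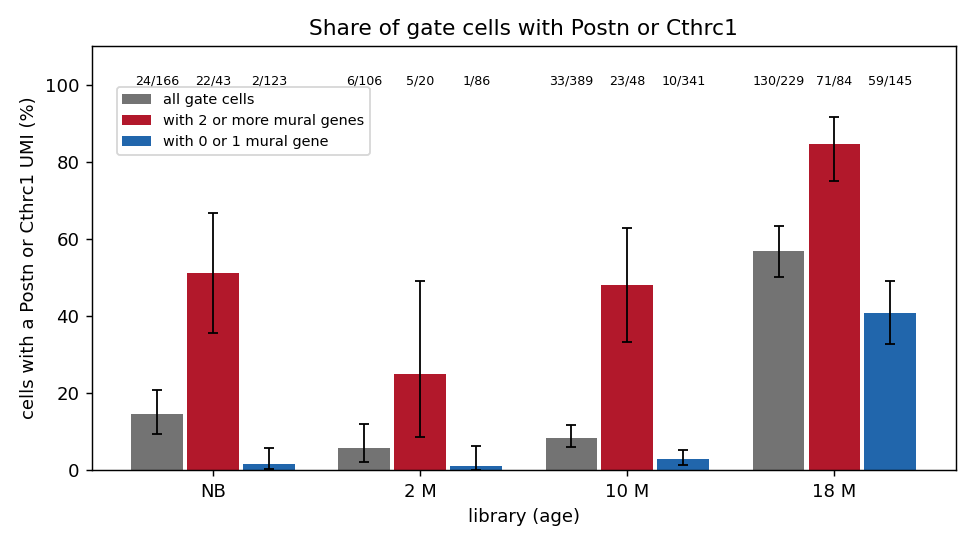
Bars give the percent of gate cells with Postn or Cthrc1 in each library, for all gate cells, for those with 2 or more mural genes and for those without, and error bars are 95% Clopper-Pearson intervals. The 18 M library stands highest in each of the 3 populations, and its 40.7% of cells without mural genes compares with 2.93% or less in the other libraries.

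Depth, and the share of T cells with either mRNA, differed between the groups and libraries too. From NB to 18 M in order of age, the median selected cell had 11675.5, 8377.5, 13391 and 9253 UMIs, and the median other cell had 6019, 7305, 6956 and 1601. In 18 M without mural genes the medians were 10971 and 1161.5 UMIs. When each cell was thinned to 2000 UMIs and the shallower 25, 13, 71 and 55 cells were left out, the shares in order of age were 8.72%, 2.74%, 5.89% and 53.0%, and the same cells unthinned gave 17.0%, 5.38%, 10.4% and 72.4%. For cells without mural genes the thinned shares were 0.582%, 0.119%, 1.07% and 44.1%. T cells, which should lack both mRNAs, showed Postn or Cthrc1 in 4 of 1601 cells of NB, 0 of 1020 of 2 M, which allows up to 0.361%, 1 of 1221 of 10 M and 16 of 1339 of 18 M (1.19%), at median depths of 5678, 6668, 6244 and 5553 UMIs. Of the 125 UMIs in T cells of 18 M, 103 were in 1 cell. The part of dissociation or of the animals in the difference between libraries was not tested.

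The level of Postn varied widely between cells. At the edge of the rule, 6, 2, 8 and 24 of the selected cells, in order of age, had a single UMI of Postn and Cthrc1 together. Those with 10 or more UMIs numbered 3, 1, 9 and 55. The highest cell of each library held 31, 15, 26 and 302 Postn UMIs, and in 18 M the 5 highest cells held 32.4% of 1943 Postn UMIs. Cthrc1 was sparser, with 1, 1, 9 and 142 UMIs in all. Just outside the rule lay 2, 0, 1 and 6 cells with Postn or Cthrc1 and exactly 3 of the 8 fibroblast genes, and 8, 6, 8 and 44 cells that had 4 or more of them but also a UMI of Ptprc, Epcam or Pecam1. Just inside, 5, 1, 0 and 9 of the selected cells had exactly 4 of the 8 genes and 1, 1, 7 and 39 had all 8. The 4 libraries shared 13 to 18 barcodes per pair among cells kept and 0 among gate cells, and 1 barcode of a selected cell of 10 M or 18 M occurred in the other library.

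Marker genes of other cell types were summed as CPM, the UMIs of a gene per 1000000 UMIs. Smooth muscle genes stood at 35051 CPM in the selected cells of NB, 39973 CPM in those of 10 M and 4849 CPM in those of 18 M, and pericyte genes at 574, 457 and 422 CPM. Of the 4 endothelial genes Cdh5, Cldn5, Kdr and Egfl7, the sum was 0 CPM in NB, 2.37 in 10 M and 5.99 in 18 M. Mesothelial genes were at 0 in NB and 10 M and summed to 13.5 CPM in 18 M, against 471 CPM in the other cells of that library, where all 6 were detected. Epithelial genes summed to 119 CPM in NB, 59.2 in 10 M and 1030 in 18 M, against 1914 in the other cells of 18 M, and T cells of 18 M held 2199 CPM of Sftpc, a gene of alveolar epithelium. Haemoglobin mRNAs summed to 287, 1377 and 13684 CPM in the selected cells of NB, 10 M and 18 M, against 13365, 5062 and 14102 CPM in the other gate cells. All 4 haemoglobin genes were thus lower in the selected cells of NB and of 10 M (median log2 ratios -5.37 and -1.89). Among 10 M cells with mural genes, 3 of 4 were instead higher in the selected cells (median log2 ratio 2.53). Within 18 M they summed to 23412 CPM in the selected cells with mural genes and 3886 CPM in those without. In the other gate cells of 18 M they summed to 52667 CPM with mural genes and 5557 CPM without. Doublets were not called. How far free RNA or pairs of cells entered any value was not tested.

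The 18 M library, although labelled male, held Xist, the RNA of the inactive X chromosome, and is called the library labelled 18 M where it matters. Of its 130 selected cells, 54 had Xist and no Y-linked UMI, 54 had Y-linked UMIs and no Xist, 4 had both and 18 neither. No selected cell of NB, 2 M or 10 M had Xist. Among gate cells of the library labelled 18 M, 54 of 73 cells with Xist alone had Postn or Cthrc1 (74.0%, 62.4% to 83.5%), and so did 54 of 91 cells with Y-linked RNA alone (59.3%, 48.5% to 69.5%). Both shares lay above those of the other libraries. The level of Postn was 1171 CPM in the selected cells with Xist and 1539 CPM in those with Y-linked RNA, and that of Cthrc1 was 112 and 85.4 CPM.

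Within each library the UMIs of the selected cells and of the other gate cells were then summed and the CPM compared. A gene was counted as apart when the CPM differed at least 2-fold with an interval that excluded 1. The genes of the selection were left out. Counts and medians over all genes used genes with at least 30 UMIs in both groups together. Counts and medians of gene lists used a lower floor of 10 UMIs, so the 2 are not at the same floor. In NB, 536 of 5342 genes were higher and 676 lower in the selected cells, so the background was 10.0% higher and 12.7% lower. In 10 M, 541 and 781 of 8074 genes were higher and lower (6.70% and 9.67%). In the library labelled 18 M, 242 and 301 of 6567 genes were higher and lower (3.69% and 4.58%). The 6 cells of 2 M were too few for this comparison. Of genes compared in both libraries, 289 were higher in NB and in 10 M, which was 54.8% of those of NB and 75.1% of those of 10 M. Between 10 M and 18 M, 94 were shared, or 21.8% of those of 10 M and 47.2% of those of 18 M.

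Contractile genes separated the selected cells from the other gate cells in NB and 10 M. All 14 genes of the contractile list were higher in NB, with a median log2 ratio of 3.82 against -0.02 over all genes, and all 14 were higher in 10 M, with 5.05 against -0.10. In 18 M 11 of 14 were higher, with 1.90 against -0.10. Acta2 was at 14670 CPM in the selected cells of NB and 984 CPM in the others (14.9-fold, 13.9 to 16.0). In 10 M it was at 18496 against 322 CPM (57.5-fold, 53.6 to 61.7). In 18 M it was at 1734 against 410 CPM (4.23-fold, 3.67 to 4.89). The ratio was thus lowest in 18 M, where 71 of the 130 cells had mural genes. Actg2, the enteric smooth muscle actin, was 13.5-fold higher in NB, 97.1-fold in 10 M and 9.85-fold in 18 M. Cspg4, a proteoglycan of pericytes and 1 of the 7 mural genes, was 24.3-fold, 31.6-fold and 3.07-fold higher. Kcnj8, a potassium channel subunit of pericytes, was at 16.5 against 31.8 CPM in NB and 9.46 against 45.1 CPM in 10 M, so that not every pericyte gene followed.

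The genes with the largest ratios in NB were named by rule. Rcan2, a regulator of calcineurin, had 61 UMIs in 16 selected cells and 2 in the others (98.0-fold, 26.0 to 828). Lgr6, a receptor of R-spondins, was 64.3-fold higher, and Cdh13, a cadherin without a membrane-spanning part, was 26.4-fold higher. Susd5 was 80.3-fold higher. Among the 10 genes furthest lower, Aldh1a1, which makes retinoic acid, had 0 UMIs in the selected cells and 465 in the others, a ratio of at most 0.0207 at a floor of 3 UMIs. Inmt, an N-methyltransferase, was at 26.4 against 3199 CPM (ratio 0.00826). Bmp4, a growth factor of the bone morphogenetic protein family, and Il33, an alarmin cytokine, had 0 UMIs in the selected cells and 101 and 102 in the others.

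In 10 M, P2rx1, the ATP-gated channel of smooth muscle, had 46 UMIs in 12 selected cells and 0 in the others (at least 99.8-fold). Cdh13 was 114-fold higher (42.5 to 429), and Susd5 was at least 65.1-fold higher. Col13a1, a transmembrane collagen that marks alveolar fibroblasts, had 0 UMIs against 196 in the others, and Fgf10, a growth factor for airway epithelium, had 0 against 153. In the library labelled 18 M, Col13a1 was again lower, at 3.75 against 82.0 CPM (ratio 0.0457), and P2rx1 had 31 UMIs in 17 selected cells against 0. Sfrp4, a secreted modulator of Wnt signals, had 43 UMIs in 21 selected cells and 0 in the others, and Inhba, the subunit of activin A, had 63 UMIs in 25 cells against 1 in the others (24.2-fold, 4.18 to 970). Inhba was also 15.0-fold higher in NB and 3.47-fold higher in 10 M.

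The difference in contractile genes was also present among the 48 gate cells of 10 M with mural genes. The 23 with Postn were set against the 25 without, and of 2938 genes 323 were higher (11.0%) and 367 lower (12.5%). All 11 contractile genes measured outside the mural list were higher (median log2 ratio 3.02), with Acta2 at 25754 against 2457 CPM (10.5-fold, 9.64 to 11.4). All 10 adventitial genes were lower (-5.67, or -4.25 at a floor of 3 UMIs). Dcn was detected in 2 of the 23 cells and in 18 of the 25, so that the cut at 2 mural genes also took in cells with fibroblast genes. Kcnj8, 1 of the 7 mural genes and left out of the counts, had 28 UMIs in 16 of the 25 cells and 3 UMIs in 3 of the 23.

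Genes of alveolar fibroblasts were lower in the selected cells of each library compared. In NB 11 of 15 were lower and 1 higher (median log2 ratio -3.06, or -1.14 with genes at 0 UMIs set to the floor). In 10 M 8 of 15 were lower and 1 higher (-1.82, or -1.14 at the floor). In 18 M 8 of 13 were lower and 1 higher (-1.08). Tcf21, a transcription factor of these fibroblasts, was at 23.1 against 210 CPM in NB, 30.8 against 171 CPM in 10 M and 43.5 against 113 CPM in 18 M. Limch1, an actin-associated protein, had ratios of 0.288, 0.409 and 0.268 in the same order.

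Genes of adventitial fibroblasts differed in direction between libraries. In NB 12 of 13 were lower and in 10 M 6 of 14 were lower, with none higher, and in 18 M 5 of 14 were higher and 1 lower. The median log2 ratios were -3.14, -1.17 and 0.52. Pi16, a secreted protein that marks adventitial fibroblasts, was at 16.5 against 340 CPM in NB, 592 against 665 CPM in 10 M, where 58.0% of its UMIs were in 1 cell, and 447 against 195 CPM in 18 M. Ly6a, a surface antigen of mesenchymal progenitors, had ratios of 0.237, 0.357 and 15.7 (7.51 to 39.3), and was detected in 30 of the 130 selected cells of 18 M. These differences between libraries were not tested.

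Complement genes were lower in most comparisons, with 8 of 9 lower and 1 higher in NB, 7 of 9 lower and 1 higher in 10 M and 3 of 8 lower in 18 M. C3, the central complement component, was at 297 against 1891 CPM in NB, 312 against 1654 CPM in 10 M and 113 against 533 CPM in 18 M. Of 11 chemokines and cytokine receptors in NB, 8 were lower and none higher. Of 12 in 10 M, 3 were lower. Of 11 in 18 M, 2 were higher and 2 lower. Cxcl12, which retains leukocytes and progenitors, was at 66.0 against 249 CPM in NB and 262 against 121 CPM in 18 M. Cxcl1, which attracts neutrophils, was at 3224 against 900 CPM in 18 M (3.58-fold, 3.25 to 3.95).

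Matrix genes other than those of the selection went in different directions by list and library. Over all genes, 10.0% were higher and 12.7% lower in NB, 6.70% and 9.67% in 10 M, and 3.69% and 4.58% in 18 M. Of the fibrillar and associated collagens, 0 of 10 in NB, 0 of 12 in 10 M and 2 of 13 in 18 M were higher, and 2, 3 and 1 were lower. Basement membrane collagens were higher for 4 of 8 in NB, 2 of 8 in 10 M and 2 of 9 in 18 M, with 1 lower in each, and Col18a1, the precursor of endostatin, was 6.82-fold, 8.99-fold and 3.42-fold higher in NB, 10 M and 18 M. Eln, the elastin precursor, was 5.70-fold higher in NB (4.84 to 6.72), 2.14-fold in 10 M (1.98 to 2.31) and 1.33-fold in 18 M (1.30 to 1.37). The elastic fibre list as a whole had 2 genes higher and 9 lower of 16 in NB, 2 higher and 5 lower of 16 in 10 M, and 2 higher and 0 lower of 17 in 18 M.

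Among matricellular and adhesive glycoproteins, the family that periostin belongs to, 3 of 18 were higher in NB, 5 of 18 in 10 M and 6 of 19 in 18 M, with 4, 3 and 1 lower. Over all genes 10.0%, 6.70% and 3.69% were higher, and 12.7%, 9.67% and 4.58% lower. Nov, of the CCN family, was 9.64-fold, 41.3-fold and 3.78-fold higher. Ctgf, of the same family, was 4.10-fold higher in NB and 4.91-fold in 10 M, and had a ratio of 1.45 (1.19 to 1.79) in 18 M. Tnc, tenascin C, was at 19.8 against 25.7 CPM in NB, 94.6 against 7.27 CPM in 10 M (13.0-fold) and 215 against 164 CPM in 18 M. Of the integrins that bind periostin and collagen, 3 of 8 were higher in NB, 3 of 9 in 10 M and 0 of 9 in 18 M. Itga1, a collagen receptor subunit, was 9.00-fold higher in NB and 27.8-fold in 10 M. Of 15 myofibroblast genes that the study named from these same samples, which are no independent evidence of a direction, 10 of 13 were higher in NB and in 10 M and 6 of 14 in 18 M.

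Signalling genes showed fewer differences than the contractile genes. Over all genes, 10.0% were higher and 12.7% lower in NB, 6.70% and 9.67% in 10 M, and 3.69% and 4.58% in 18 M. Of the TGF-beta and activin list, 1 of 20 was higher and 4 lower in NB, 4 of 20 higher and 2 lower in 10 M, and 2 of 21 higher and 0 lower in 18 M. With so few genes, several of these counts lie near the shares over all genes. Tgfb2, a TGF-beta ligand, was at 281 against 150 CPM in NB, 274 against 119 CPM in 10 M and 444 against 262 CPM in 18 M. Tgfb1 was at 85.8 against 49.3, 61.5 against 51.3 and 62.9 against 44.9 CPM, ratios below 2 in each library. Fst, the antagonist of activin, was at 103 against 39.1 CPM in 18 M (2.65-fold, 1.65 to 4.47) and 26.0 against 59.6 CPM in 10 M. Of the BMP and Wnt list, 4 of 16 were higher and 6 lower in NB, 5 and 6 of 20 in 10 M and 2 and 4 of 20 in 18 M. Sfrp2, a secreted modulator of Wnt signals, was 86.8-fold higher in NB (14.3 to 3552) and 35.3-fold in 10 M (15.6 to 93.7). Id1, a target of bone morphogenetic proteins, was 5.52-fold higher in NB, 4.21-fold in 10 M and had a ratio of 1.52 in 18 M.

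Of the proteases and their inhibitors, 2 of 15 were higher and 5 lower in NB, 1 and 5 of 16 in 10 M and 4 and 2 of 18 in 18 M. The shares higher and lower over all genes were 10.0% and 12.7%, 6.70% and 9.67%, and 3.69% and 4.58%. The counts of higher genes in NB and 10 M were thus near those shares. Fap, the protease called fibroblast activation protein, had 40 UMIs in 24 of the selected cells of 18 M and 4 in the others (3.84-fold, 1.39 to 14.8), and 0 UMIs in those of NB and 10 M, which allows up to 9.90 and 7.10 CPM at 3 UMIs. Timp1, an inhibitor of matrix proteases, was at 136 against 316 CPM in 18 M, where 53.1% of the UMIs of the others were in 1 cell. Among the small leucine-rich proteoglycans other than Dcn, 6 of 8 were lower in NB, 3 of 8 in 10 M and 1 of 9 in 18 M, where 3 were higher. Of the lipid genes, Plin2, which coats lipid droplets, had ratios of 0.136 in NB, 0.320 in 10 M and 0.288 in 18 M. No gene of the cell cycle list was apart in any of the 3 libraries, with 5, 7 and 9 measured.

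**Figure D3:**
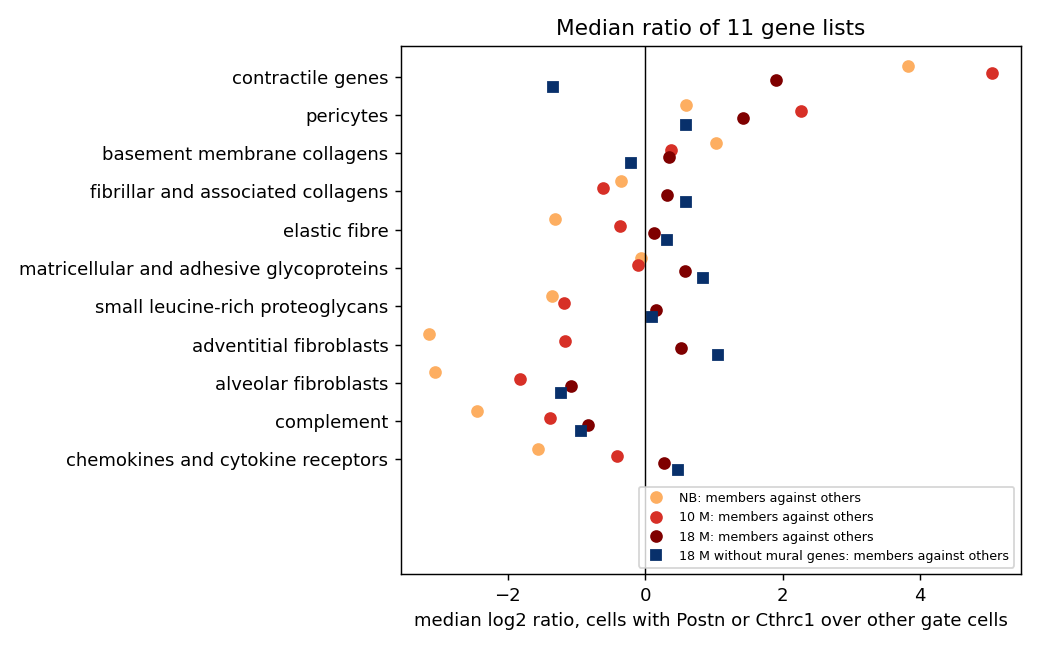
Points give the median log2 ratio of each gene list between the selected cells and the other gate cells, for NB, 10 M, 18 M and the cells of 18 M without mural genes, with the vertical line at 0. The contractile list is far to the right in NB and 10 M (3.82 and 5.05) and left of 0 in 18 M cells without mural genes (-1.34), and the adventitial list is left in NB and 10 M (-3.14 and -1.17) and right in those 18 M cells (1.06).

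Among the 145 gate cells of 18 M without mural genes, the 59 with Postn or Cthrc1 were compared with the 86 others. The median cell had 10971 UMIs in the former and 1161.5 in the latter, so counts of cells with a gene are not at equal depth. Of 4824 genes, 162 were higher (3.36%) and 321 lower (6.65%). The selected cells were higher for genes of adventitial fibroblasts, 8 of 14 with 1 lower (median log2 ratio 1.06 against -0.16 over all genes). Lum, the proteoglycan lumican, was detected in 37 of 59 cells at 844 CPM, against 52.5 CPM in 8 of the 86 others (16.1-fold, 10.5 to 25.9). Ly6a was at 373 against 16.7 CPM (22.3-fold, 10.7 to 56.1), and Pi16 at 853 against 239 CPM (3.57-fold, 2.88 to 4.47). Dpt, the matrix protein dermatopontin, was 2.13-fold higher. Ebf2, a transcription factor of mesenchymal progenitors, had 62 UMIs in 22 cells against 1 in the others (39.1-fold, 6.76 to 1568).

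In the same cells, 8 of 17 matricellular genes were higher and 2 lower. Fn1, fibronectin, was at 2835 against 1229 CPM (2.31-fold, 2.09 to 2.55). Smoc2 was 3.96-fold higher (2.66 to 6.07) and Matn2, a matrilin that joins matrix filaments, 5.84-fold higher (3.13 to 12.1). Of the fibrillar and associated collagens, 4 of 13 were higher and 1 lower. Col1a1, a gene of the selection, was at 24597 against 14536 CPM in the summed UMIs. In the single cell at the median, Col1a1 was at 135 against 133 UMIs per 10000, so the median cells hardly differed. Col14a1, which sits on collagen fibrils, was at 1606 against 673 CPM (2.39-fold, 2.09 to 2.73). Col5a3 was 2.98-fold higher (1.92 to 4.78). Eln was at 12859 against 14235 CPM, so that elastin was not higher in these cells. Ptx3, a pentraxin of the innate defence, was 14.5-fold higher (9.38 to 23.6), and 29.2% of its UMIs were in 1 cell. Among cells with Xist and no Y-linked RNA it was at 142 CPM in the 23 selected cells and 162 CPM in the 16 others, and among those with Y-linked RNA and no Xist at 1124 CPM in 23 and 0 UMIs in 30. Fap was 4.88-fold higher (1.73 to 19.05). Cxcl1 was 4.51-fold higher and Cxcl12 2.30-fold higher.

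Genes of alveolar fibroblasts were lower there, 7 of 13 with 1 higher (-1.23). Npnt, an integrin ligand of the alveolar wall, was at 45.1 against 386 CPM (ratio 0.117, 0.0763 to 0.173). Itga8, its integrin receptor subunit, had a ratio of 0.176, Limch1 of 0.168 and Col13a1 of 0.0600. Igfbp3, which binds insulin-like growth factors, was at 34.6 against 310 CPM. Of the contractile genes outside the mural list, 5 of 6 were lower, Acta2 among them at 19.6 against 105 CPM. Complement genes were 4 of 8 lower and 1 higher, with C4b at a ratio of 0.213. Single cells carried some of the largest ratios: 55.3% of the Igf2 UMIs, 56.9% of the H19 UMIs and 57.9% of the Col11a1 UMIs were in 1 cell, and Acan, a cartilage proteoglycan, was found in 2 of the 59 cells. Mesothelial genes, all 6 of them, were detected in the 86 other cells at 575 CPM together and 1 of 6 in the selected cells at 19.6 CPM. Their part in the differences was not tested.

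The 2 kinds of selected cell in 18 M were set against each other as a description, since the mural genes that separate them were read in the same cells. Of 5413 genes, 414 were higher (7.65%) and 570 lower (10.5%) in the 59 cells without mural genes than in the 71 with them. All 13 measured adventitial genes were higher (median log2 ratio 2.81), as were 9 of 13 fibrillar and associated collagens (1.51) and 9 of 17 elastic fibre genes (1.31), with 0, 2 and 2 lower. Col1a1 was at 24597 CPM without and 5282 CPM with mural genes, and Eln at 12859 and 32921 CPM, so that the collagen was higher in the former and elastin in the latter. Of the chemokines and cytokine receptors 5 of 10 were higher in the cells without mural genes and 0 lower (1.10). Ccl11, which attracts eosinophils, had 287 UMIs in 21 of the 59 cells, 43.6% of them in 1 cell, and 1 UMI in the 71. Ccl2, which attracts monocytes, had 624 UMIs in 24 cells and 15 in 3. Penk, the enkephalin precursor, had 63 and 2 UMIs.

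In the other direction, all 11 contractile genes measured outside the mural list were lower without mural genes (median log2 ratio -6.51). Actg2 had 0 UMIs in the 59 cells and 308 in 51 of the 71. Ednrb, an endothelin receptor, had 0 and 122 UMIs, Grp, a bombesin-like peptide, 0 and 87, and Itga4, an integrin subunit, 0 and 52. Grem1, an antagonist of bone morphogenetic proteins, had 1 UMI in the 59 cells and 30 in the 71. Inhba, which was higher in the selected cells as a whole, was at 6.02 CPM without and 88.1 CPM with mural genes. Tnc was likewise at 79.7 and 349 CPM.

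**Figure D4:**
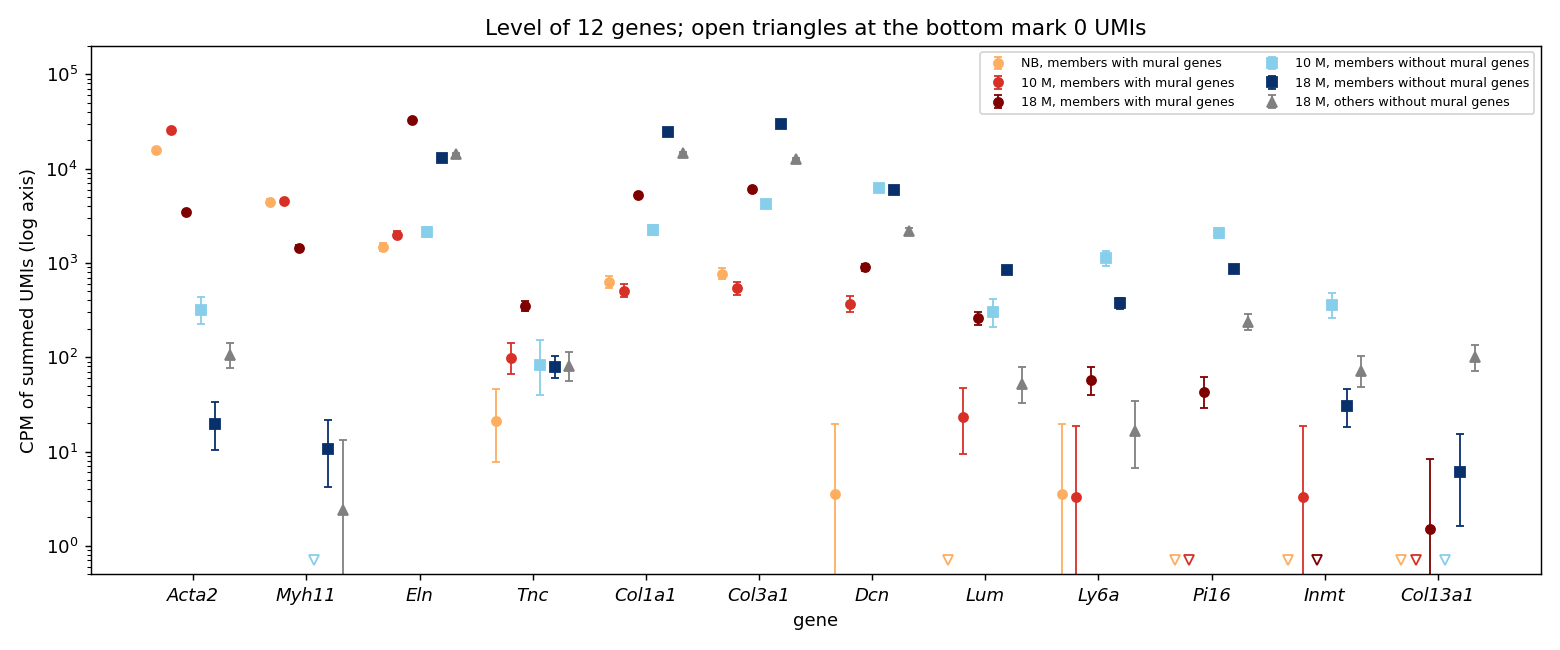
Points give the CPM of named genes on a log axis in the selected cells with mural genes of NB, 10 M and 18 M, in those without of 10 M and 18 M, and in the other gate cells without mural genes of 18 M, with exact Poisson intervals as bars and open triangles for 0 UMIs. In both kinds of selected cell Col1a1, Col3a1 and Eln are highest in 18 M, and Acta2 in cells with mural genes is lowest in 18 M (3436 CPM).

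Between libraries the selected cells with mural genes differed in matrix genes, in contractile genes and in genes of other cell types. From NB through 2 M and 10 M to 18 M, Eln in these cells was at 1461, 132, 1990 and 32921 CPM. The level of 18 M was 16.5-fold that of 10 M (15.3 to 18.0). Col1a1 was at 625, 211, 510 and 5282 CPM and Col3a1 at 766, 711, 540 and 6097 CPM. For all 3 genes 18 M was the highest, and the interval of Eln against each other library excluded 1. The 2 M values came from 5 cells, with 5 UMIs of Eln and 8 of Col1a1. Col1a1 and Col3a1 are genes of the selection, so their levels are a description. In the single cell at the median, Eln was at 5.63 UMIs per 10000 in NB, 14.3 in 10 M and 291 in 18 M. Col1a1 was at 3.71, 4.04 and 16.2 in the same order, and Col3a1 at 1.70, 6.04 and 14.6. The highest 18 M cell reached 591 for Col1a1 and 446 for Col3a1. For these 2 collagens the median cells of 10 M and 18 M thus lay closer together than the sums. Of 4523 genes, 705 were higher (15.6%) and 519 lower (11.5%) in 18 M than in 10 M. All 9 measured fibrillar and associated collagens outside the selection were higher (median log2 ratio 2.14 against 0.12 over all genes), as were 11 of 15 elastic fibre genes with 1 lower (1.68) and 10 of 21 collagen processing genes with none lower (0.96).

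Contractile genes differed the other way, with 9 of 11 lower in 18 M and none higher (median log2 ratio -1.88). Acta2 was at 15607, 9211, 25754 and 3436 CPM in order of age, a ratio of 0.133 between 18 M and 10 M (0.127 to 0.140). Myh11, given as a description because it is 1 of the 7 genes that define these cells, was at 4476, 3316, 4556 and 1454 CPM. Cells at 0 for Acta2 are included in these sums. Lmcd1, a regulator of transcription in muscle, had a ratio of 0.127 and Efhd1, a mitochondrial calcium-binding protein, one of 0.0145. Wnt5a, a ligand of Wnt signals, had 73 UMIs in 21 of the 71 cells of 18 M and 0 in the 23 of 10 M (at least 11.0-fold), and Hhip, a hedgehog antagonist, had 122 in 14 cells and 0 (at least 18.3-fold). Tgfbi, a matrix protein induced by TGF-beta, had 291 UMIs against 1. Haemoglobin genes were also higher, 4 of 4 (median log2 ratio 3.63). So were 9 of 10 genes of adventitial fibroblasts, with 0 lower (4.25, or 2.40 at a floor of 3 UMIs). Of the peribronchial fibroblast list 5 of 8 were higher and 0 lower (2.76), and of the alveolar fibroblast list 0 of 10 were higher and 1 lower. Sftpc was at 1514 CPM in 18 M and 29.8 CPM in 10 M. Whether these cells are of 1 kind was not tested. On the list of imprinted growth genes, 7 of 11 were higher and 0 lower (1.37). What lies behind these differences between libraries was not tested.

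Col1a1 and Eln were also higher in 18 M than in 10 M in the gate cells without mural genes. In selected cells without mural genes, Col1a1 was at 2247 CPM in the 10 cells of 10 M and 24597 CPM in the 59 of 18 M (10.9-fold, 9.71 to 12.4). In the other gate cells without mural genes it was at 1517 and 14536 CPM (9.58-fold, 9.20 to 9.98), and Eln at 858 and 14235 CPM (16.6-fold, 15.8 to 17.4). T cells showed Eln at 2.76, 4.16, 1.08 and 55.1 CPM in order of age, and Col1a1 at 2.27, 6.10, 5.62 and 59.3 CPM. In 18 M the median T cell had 5553 UMIs and the median other gate cell without mural genes 1161.5. The part of free RNA in these levels was not tested. Among gate cells, the higher Col1a1 and Eln of 18 M were found outside the cells with Postn or Cthrc1 too, and Col1a1 is given as a description since the selection used it. Other genes went otherwise. Lum was 2.83-fold that of 10 M in the selected cells without mural genes and 0.280-fold in the others without them, Pi16 was lower in 18 M in both (ratios 0.411 and 0.346), and Tnc had ratios of 0.961 and 11.3. Dcn was at 6162 and 5873 CPM in selected cells without mural genes of 10 M and 18 M and at 5050 and 2186 CPM in the other cells without them. Its place among the genes of the selection leaves this as a description.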

How the data were processed

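The data are 4 droplet single-cell RNA libraries of mouse lung (10x), 1 for each age. The deposited counts are raw UMI counts per gene and barcode, produced by the authors. The submitters' processing notes list Cell Ranger 3.0.2, mm10 and Seurat 2.0. No normalization had been applied to them. Groups were taken from the labels.

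A barcode was kept with more than 200 but fewer than 5000 genes detected, no more than 25000 UMIs and a mitochondrial share below 8%. Doublets were not called. The UMIs of a group of cells were summed per library and divided by their total, and CPM with exact Poisson intervals, ratios with exact conditional binomial intervals and shares with Clopper-Pearson intervals were computed in Python 3.11.15 with scipy 1.17.1. A count of 0 was bounded at 3 UMIs. List medians and counts of list genes apart used genes with at least 10 UMIs in both groups together. For the medians 0.5 UMIs were added to each count. Counts of genes apart and list medians were not taken for groups under 20 cells, but levels and ratios of single genes were. The selected cells held 302931, 60692, 422631 and 1334587 UMIs in order of age, so 1 UMI equals 3.30, 16.5, 2.37 and 0.749 CPM. The ratios and their intervals were tested on simulated Poisson sums. These held no variation between cells, so the test says nothing about genes carried by few cells.

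Named genes were the 10 highest and 10 lowest ratios per library among genes with at least 30 UMIs, UMIs in at least 10 cells of the higher group and an interval excluding 1, and the genes of 30 lists. In comparisons within cells with or without mural genes, the 7 mural genes were left out of the counts and list medians too. The cells and lists were chosen with earlier results of these data known. Alternatives covered the limits on cells, the rule, mural and Xist cells, the total, the gene filter, the fold and thinning.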

Additional observations from a re-analysis of the deposited data

How the results depend on the processing

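No paired analysis was possible because each age has 1 library, and no library could be left out of a comparison within itself. The share of gate cells with Postn or Cthrc1, 14.5%, 5.66%, 8.48% and 56.8% from NB to 18 M in order of age, moved beyond its interval as follows. Cthrc1 alone, with gate cells that had Postn but no Cthrc1 left out, gave 0.699%, 0.990%, 1.66% and 29.8%. Without mural cells it was 1.63%, 1.16%, 2.93% and 40.7%, and with at least 4000 UMIs per cell besides 2.47%, 1.54%, 4.24% and 64.1%. Cells with mural genes alone, a setting chosen after seeing the data like the preceding one, gave 51.2%, 25.0%, 47.9% and 84.5%. Thinning to 1000 UMIs gave 5.06% in NB, 3.64% in 10 M and 39.0% in 18 M, thinning to 2000 UMIs 8.72% in NB and 5.89% in 10 M, and thinning to 4000 UMIs 65.2% in 18 M. In 18 M, at least 4000 UMIs per cell gave 75.5%, cells without Xist 49.0% and cells with Xist 70.7%. The 18 M share stayed the highest under each of these settings that all 4 libraries allowed.

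Genes higher and lower in the selected cells numbered 536 and 676 in NB, 541 and 781 in 10 M and 242 and 301 in 18 M. At 3-fold they were 263 and 447, 260 and 464, and 124 and 82. With at least 100 UMIs per gene they were 192 and 294, 235 and 488, and 91 and 60. With at least 10 UMIs, 813 were higher in NB and 513 lower in 18 M. Among cells with mural genes they were 262 and 202 in NB and 323 and 367 in 10 M. With 6 of 8 fibroblast genes 489 were lower in 10 M, with Cthrc1 alone 156 were higher in 18 M, and as a mean over cells, which gives shallow cells equal weight, 784 were higher and 551 lower in 18 M.

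The contractile median of 18 M, 1.90, turned to -2.78 for Cthrc1 alone, to -1.34 without mural cells and to -1.50 without them at 4000 UMIs, was 2.32 among Xist cells and was 2.68 as a mean over cells. It was 1.56 in NB and 3.02 in 10 M among cells with mural genes, and 5.36 in 10 M with at least 2 UMIs of Postn and Cthrc1. The median of fibrillar collagens in 18 M, 0.32, was 0.023 for Postn alone, 0.72 for Cthrc1 alone, 0.59 without mural cells, 0.53 without them at 4000 UMIs and 0.50 as a mean over cells. Causes were not tested. Of 344 list medians recomputed under an alternative, 309 stayed between the median lower and the median upper bound of their genes' counting intervals. Those bounds cover counting error only. Settings that left under 20 cells in a group were not run, among them Xist cells outside 18 M and NB or 10 M without mural cells for genes and lists.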
